A study of Mus musculus and blank sample with 768 samples.

Results

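Tumour macrophages with high and with low MHC class II expression were compared, on either side of the median level of the class II gene H2-Ab1. The macrophages were single cells sorted from mouse tumours as CD45+CD31-GFP-, that is positive for the leukocyte protein CD45 and negative for the endothelial protein CD31 and for GFP, and they filled 96 wells of 1 plate. Wells under 50000 reads in genes, under 1000 detected genes or over 25% of mitochondrial reads were dropped, which left 81 of 96 macrophage wells, out of 592 kept wells of 768 in the series. The 81 wells were then selected into groups on a measured value, the H2-Ab1 level of each well. The 41 wells at or above the median of 1208.51 CPM (reads of a gene per 1000000 reads in genes) are called MHC II-high, and the 40 wells below it MHC II-low. The other wells of the series held endothelial cells of tumour, lymph node and blood sorted by GFP, and 2 wells were empty. The labels give tissue and gate but no tumour type, strain, age, treatment or animal, so no group can be described further. GFP- tumour macrophages are one gate of a design that sorted on GFP, and GFP+ macrophages were not analysed here.

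MHC class II molecules are pairs of an alpha and a beta chain that display peptides from endocytosed proteins to CD4+ T cells. The invariant chain, encoded by Cd74, escorts new pairs to endosomes, where proteases trim it and the H2-DM heterodimer exchanges the last fragment for a peptide. The transactivator encoded by Ciita switches these genes on together by joining factors bound to short promoter elements called the X and Y boxes, and interferon-gamma induces Ciita in macrophages. In many mouse tumours, MHC II-high macrophages are described as closer to an inflammatory, antigen-presenting state, and MHC II-low macrophages as Mrc1- and Arg1-expressing cells of poorly perfused areas.

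No label names an animal, so all 81 wells are 1 sample, each group is 1 sample, and no difference was tested. Levels are CPM of the summed reads of a group, with exact Poisson 95% intervals in brackets, and ratios are log2 of MHC II-high over MHC II-low after adding 1 CPM to each. The reads are PCR copies without molecular identifiers, so every interval covers counting error only. Since the groups were made from the same libraries in which all genes were counted, every value below is a description of how the groups were composed. The groups held like numbers of reads, with a median of 850219 in MHC II-high wells (111208 to 2140210) and 873890 in MHC II-low wells (191097 to 2909179). MHC II-low wells had more genes with a read, with a median of 3572.5 against 3133, and 2831 against 2563 with every well thinned to 50000 reads. The median share of mitochondrial reads was 3.14% and 3.68%. The groups were spread unevenly over the plate: columns 1 to 6 held 17 MHC II-high and 25 MHC II-low wells, and columns 7 to 12 held 24 and 15. Of the 15 wells not kept, 12 were the whole of plate row G.

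Across the transcriptome, 1401 of 10914 measured genes were at least 2-fold higher in MHC II-high wells (12.8%) and 2212 were at least 2-fold lower (20.3%). A gene counted as measured when one group had it at 1 CPM or more and in 5% of wells or more. The median log2 ratio of all measured genes was -0.11. These percentages are the background for the counts of each gene group. Many of the ratios were carried by 1 well. When the well with most reads of a gene in its higher group was left out, 670 of the 1401 and 1070 of the 2212 were still at least 2-fold apart. More genes were detected in the MHC II-low wells, and the part of this in the larger number of lower genes was not tested.

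The promoters of H2-Aa and H2-Eb1 are shown because these genes encode the alpha and the beta chain that followed H2-Ab1 most closely, and because the X and Y boxes are the elements that the class II transactivator acts through. Each is the 150 bases before the start site in RefSeq (GRCm38.p6), 5′ to 3′ along the gene's strand, with matches to the Y box (TGATTGG) and the X box (AACNGATG) in capitals.
H2-Aa, chr17:34287824-34287973, minus strand: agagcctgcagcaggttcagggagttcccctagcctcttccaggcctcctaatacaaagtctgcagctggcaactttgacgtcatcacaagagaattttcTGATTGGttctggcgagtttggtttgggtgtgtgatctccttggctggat
H2-Eb1, chr17:34305717-34305866, plus strand: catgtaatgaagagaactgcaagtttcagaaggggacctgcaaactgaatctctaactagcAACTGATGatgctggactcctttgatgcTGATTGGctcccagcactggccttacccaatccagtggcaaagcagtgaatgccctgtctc

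The Y box began 50 bases before the start of H2-Aa and 61 bases before that of H2-Eb1. In H2-Eb1 the X box lay upstream of it with 20 bases between them. Both strands of the 250 bases before each start were searched, and a Y box was found in 2375 of 32851 promoters (7.23%), an X box in 652 (1.98%) and both in 48 (0.146%). Both sets of letters were present in H2-Eb1, H2-Eb2, H2-DMb1 and H2-DMb2, with 20 or 21 bases between them. The Y box letters alone were present in H2-Aa, H2-Oa, H2-Ob and, on the opposite strand, Cxcl9. Only these exact letters were searched, so an X or Y box with other letters would be missed. Neither set of letters was in that window of H2-DMa, Ifi30, Lgmn, Mrc1, B2m, H2-K1 or Mgl2, and Ctss held the X box letters alone. H2-Eb2 had 0 reads in every kept macrophage well. H2-Ab1, Ciita, Arg1 and Cfb had no entry in the promoter table.

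H2-Aa, H2-Eb1 and Cd74 were each over 2-fold higher in the wells selected for H2-Ab1, and followed its level from well to well. H2-Ab1, the beta chain of the I-A molecule (chromosome 17, 34257689 to 34269419, plus strand), set the groups and stood at 5357 CPM in MHC II-high wells and 272.1 CPM in MHC II-low wells. By well it ran from 1208.51 to 16562 CPM with a median of 3310 in the upper group, and from 0 to 1182.22 with a median of 166.9 in the lower group. The split fell within a continuous range: the 3 wells just below it were at 872.5, 927.5 and 1182.22 CPM and the 3 just above it at 1208.51, 1249 and 1258 CPM.

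H2-Aa, the alpha chain of I-A (chromosome 17, 34282744 to 34287823, minus strand), was detected in all 41 MHC II-high wells, where it ran from 798.8 to 11575 CPM with a median of 3026. In MHC II-low wells it ran from 0 to 1402 CPM with a median of 157.6 and had reads in 27 of 40 wells. The groups overlapped, although 32 MHC II-high wells lay above every MHC II-low well. The summed level was 4338 CPM (4317 to 4358) against 338.9 CPM (333.3 to 344.6), a log2 ratio of 3.67.

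H2-Eb1, the beta chain of the I-E molecule (chromosome 17, 34305867 to 34316674, plus strand), ran from 82.2 to 12259 CPM in MHC II-high wells with a median of 2893. In MHC II-low wells its median was 17.6 CPM, its highest value 1132 CPM, and it had reads in 21 of 40 wells. Of the MHC II-high wells, 34 lay above every MHC II-low well. Its summed level was 3909 CPM (3889 to 3929) against 213.05 CPM (208.6 to 217.6), a log2 ratio of 4.19. An antisense gene, Gm20513, overlaps it, and the sources used here do not say whether reads were counted by strand.

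Cd74 (chromosome 18, 60803848 to 60812652, plus strand) was lower but still present in most MHC II-low wells. It had reads in all 41 MHC II-high wells, with a median of 9781 CPM and a highest value of 24502, and in 36 of 40 MHC II-low wells, with a median of 482.7 CPM and a highest value of 8938. The groups overlapped more than for the chain genes. The summed level was 11755 CPM (11721 to 11789) against 1401 CPM (1390 to 1413), a log2 ratio of 3.07. Together H2-Ab1, H2-Aa, H2-Eb1 and Cd74 took a median of 1.81% of all reads of an MHC II-high well (0.538% to 6.03%) and 0.0958% of an MHC II-low well (0 to 1.19%).

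**Figure D1:**
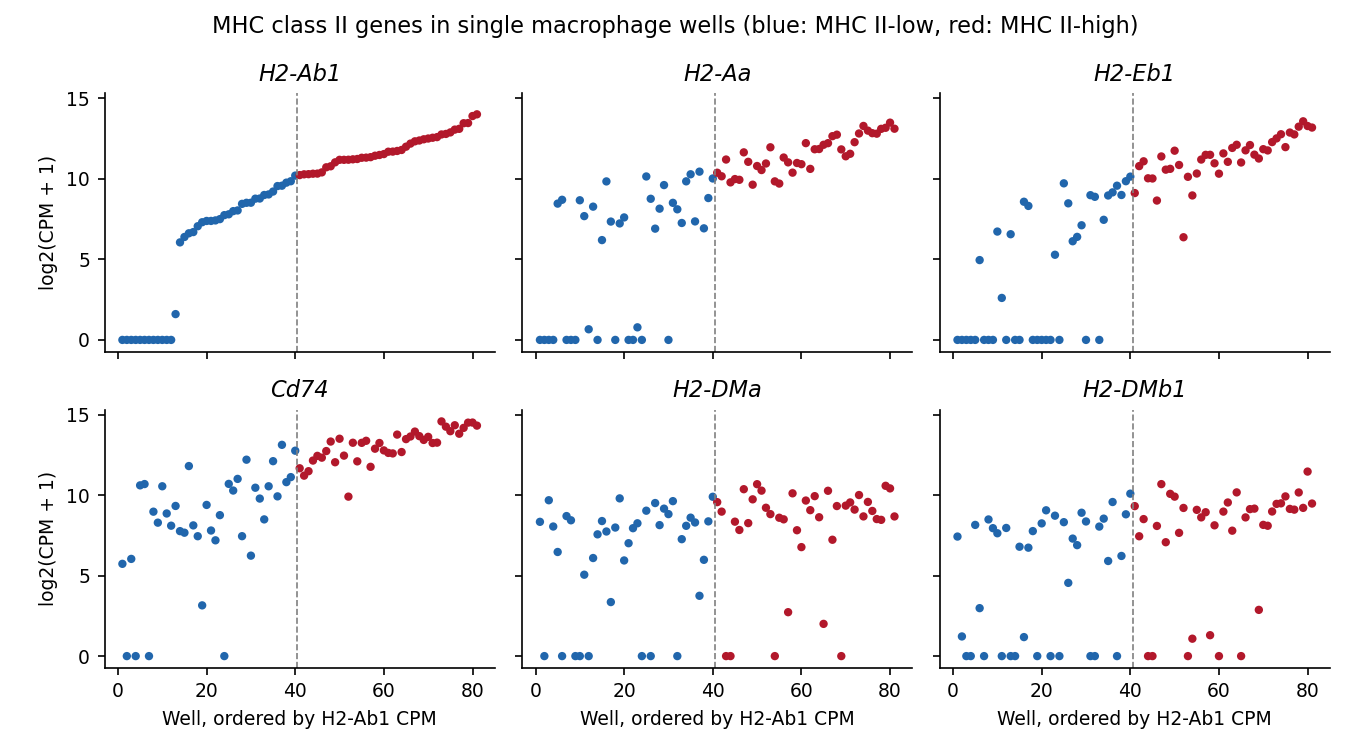
Level of 6 class II genes in each of the 81 kept macrophage wells, as log2(CPM + 1), with wells in the order of their H2-Ab1 level and a dashed line at the split between 40 MHC II-low wells (blue) and 41 MHC II-high wells (red). H2-Aa, H2-Eb1 and Cd74 climb with H2-Ab1 on both sides of the line, while H2-DMa and H2-DMb1 climb less.

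The 4 genes also tracked each other within the groups. Over 81 wells, Spearman's rho with H2-Ab1 was 0.93 for H2-Eb1, 0.91 for H2-Aa and 0.90 for Cd74, as a description of wells that share 1 plate. Among the 41 MHC II-high wells alone it was 0.85, 0.84 and 0.83. Among the 40 MHC II-low wells it was 0.66, 0.49 and 0.51, so the ordering was looser where levels were low. Dividing the wells at the median of H2-Aa or of H2-Eb1 placed 37 wells above and 36 below that H2-Ab1 placed there too. At the median of Cd74 those numbers were 36 and 35.

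H2-Ab1 had 0 reads in 12 MHC II-low wells. Cd74 had reads in 9 of these, at up to 1650 CPM, whereas H2-Aa had reads in 5 and H2-Eb1 in 3. Csf1r, through which CSF1 keeps macrophages alive, had reads in all 12 (118.7 to 2991 CPM), as did Cd68, a lysosomal protein of macrophages, Ptprc, the CD45 gene, and C1qb, a chain of complement C1q at 4881 CPM or more. Adgre1, the F4/80 gene of macrophages, had reads in 8 of the 12, against 38 of 41 MHC II-high wells.

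Genes that load peptides onto class II were split between those that were higher and those that were nearly level. H2-DMb1, the beta chain of the peptide exchange factor (chromosome 17, 34153072 to 34160230, plus strand), was at 522.0 CPM (514.8 to 529.2) against 207.7 CPM (203.3 to 212.2), with reads in 36 and 28 wells and medians of 503.001 and 113.98 CPM. Its log2 ratio of 1.33 was 0.95 without the well with most of its reads. H2-DMa, the alpha chain (chromosome 17, 34119541 to 34139101, plus strand), was at 591.5 and 284.1 CPM with reads in 37 and 32 wells, a log2 ratio of 1.06, or 0.96 without the leading well and 0.50 in plate columns 7 to 12. The groups overlapped widely for both, and Spearman's rho with H2-Ab1 was 0.53 for H2-DMb1 and 0.44 for H2-DMa. H2-DMa overlaps Brd2 on the other strand, and H2-DMb1 has a near-identical neighbour in H2-DMb2, so reads of these pairs may not be told apart.

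H2-DMb2 was at 30.5 and 9.98 CPM in 10 and 8 wells, with a log2 ratio of 1.52 that was 0.12 in plate columns 1 to 6. H2-Oa and H2-Ob encode H2-O, an inhibitor of H2-DM known from B cells and some dendritic cells. They had reads in 3 and 1 MHC II-high wells and in 1 and 3 MHC II-low wells. The log2 ratio of H2-Ob, -3.002, came from 1 well that held 92.6% of its reads in the lower group and was 0.05 without it, 0.03 with thinned wells and 2.22 in plate columns 7 to 12. The endosomal enzymes were within 2-fold. Ctss, a protease that trims the invariant chain, was at 8290 and 7083 CPM, and Lgmn, an asparagine-specific protease, at 3719 and 3304 CPM, each with reads in all 81 wells. Ifi30, a thiol reductase that opens disulphide bonds in antigens, was at 986.8 and 609.3 CPM, a log2 ratio of 0.69.

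Over the class II molecules and loading genes without H2-Ab1, 11 of 13 were measured. Of these, 7 were at least 2-fold higher and 1 lower, against 12.8% and 20.3% of all measured genes. The median log2 ratio was 1.26. Without the leading well of each gene, 4 of the 7 and 0 of the 1 were still 2-fold apart. The other 3 were within 2-fold, and H2-Eb2 and H2-Ea-ps had 0 reads. The median was 1.396 in plate columns 1 to 6 and 0.78 in columns 7 to 12. It was 0.96 without 7 wells that had reads of at least 3 markers of another cell type.

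The regulators of class II were sparse. Ciita (chromosome 16, 10480059 to 10528418, plus strand) had reads in 8 of 41 MHC II-high wells (19.5%, exact Clopper-Pearson 95% interval 8.82% to 34.9%) and in 1 of 40 MHC II-low wells (2.50%, 0.0633% to 13.2%). Its summed level was 15.01 CPM (13.8 to 16.3) against 1.96 CPM (1.55 to 2.44), a log2 ratio of 2.44, or 0.97 with wells split on Cd74. Ciita overlaps Dexi on the other strand. The other 33 MHC II-high wells, at or above the median of H2-Ab1, had no Ciita read. A gene read in so few wells may be missed in others. The X box factors Rfx5, Rfxap and Rfxank had reads in at most 5 wells of a group and were within 2-fold. Of the Y box factors, Nfya was at 2.93 and 14.4 CPM, Nfyb at 24.96 and 52.04 CPM and Nfyc at 36.3 and 65.6 CPM. The log2 ratio of Nfyb, -1.03, was 0.03 in plate columns 7 to 12. March1, a ubiquitin ligase that removes class II from the cell surface, was at 46.9 CPM in MHC II-high and 112.5 CPM in MHC II-low wells. It had reads in 22 and 21 wells. Its log2 ratio of -1.24 was -0.80 by mean CPM of the wells. With wells split on Cd74 and on H2-Aa the ratio was -0.21 and -0.29. Over all 9 regulators, 1 was at least 2-fold higher and 3 were lower, against 12.8% and 20.3% of all measured genes. Their median was -0.88. Without the leading well of each gene, 1 of the 3 lower genes was still 2-fold lower, and the median in plate columns 7 to 12 was -0.00069.

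**Figure D2:**
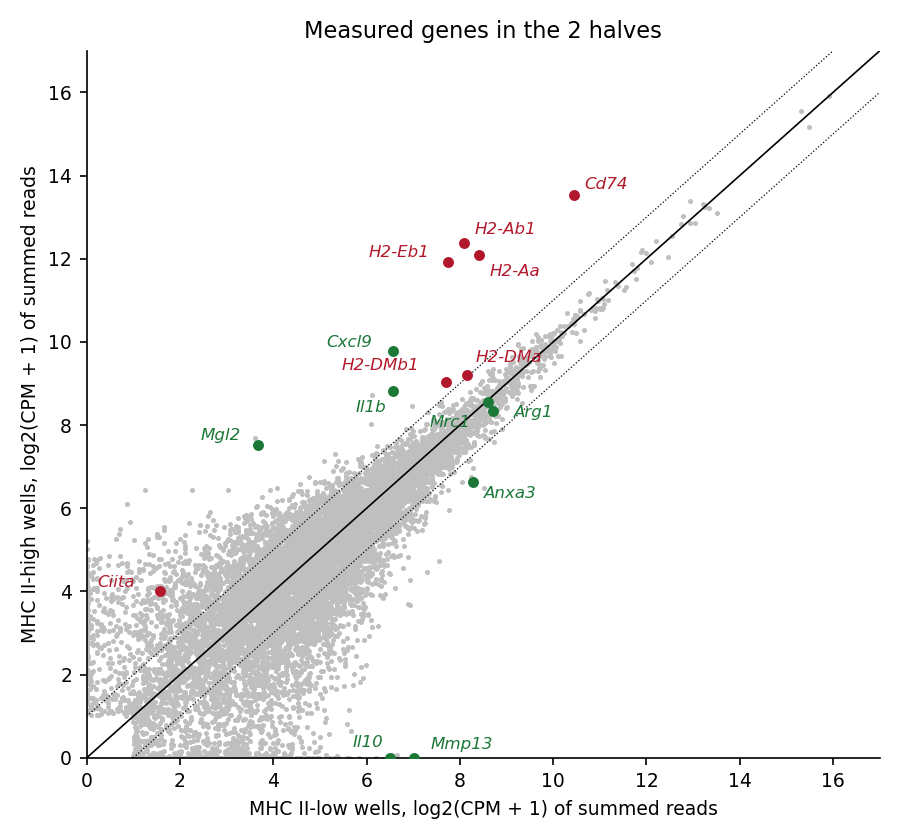
Summed level of each of 10914 measured genes in MHC II-low wells (horizontal) and MHC II-high wells (vertical), as log2(CPM + 1), with the line of equal levels solid and the 2-fold lines dotted. H2-Ab1, H2-Aa, H2-Eb1 and Cd74 (red) stand above genes of like level, Mrc1 and Arg1 (green) lie near the line of equal levels, and the widest scatter is among genes of low level.

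Few genes elsewhere followed the H2-Ab1 level. With predicted, ribosomal and mitochondrial genes left out, 1651 measured genes had reads in at least 50% of wells and were ranked. The 10 with the highest Spearman's rho with H2-Ab1 besides itself were H2-Eb1, H2-Aa, Cd74, H2-DMb1 (0.53), H2-DMa (0.44), B2m (0.41), Ifi30, Cfb and H2-K1 (each 0.38) and Ctss (0.37). Over the other 1650 ranked genes, the middle 90% of values ran from -0.21 to 0.21, and 4 genes reached 0.5. Of the 10, 6 lie in the stretch of chromosome 17 from H2-K1 to H2-D1, at 33996017 to 35267499. These 6 are H2-Eb1, H2-Aa, H2-DMa, H2-DMb1, H2-K1 and Cfb. B2m encodes the light chain of MHC class I and was at 5534 and 4691 CPM, a log2 ratio of 0.24. H2-K1, a class I heavy chain, was at 2028 and 1519 CPM. Cfb, complement factor B, was at 348.01 and 195.4 CPM with reads in 31 and 20 wells.

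The lowest correlations were of a like small size, from -0.34 to -0.42. Wasf2, a subunit of the complex that drives branched actin assembly, was at 85.3 CPM (82.4 to 88.2) in MHC II-high wells and 214.7 CPM (210.3 to 219.3) in MHC II-low wells, with medians of 58.5 and 202.2 CPM and a rho of -0.42. Anxa3, a calcium-dependent phospholipid-binding protein, had reads in 21 of 41 and 35 of 40 wells, with medians of 2.49 and 282.7 CPM. Its summed level was 98.5 CPM (95.5 to 101.7) against 310.9 CPM (305.5 to 316.4), a log2 ratio of -1.65 that was -2.12 in plate columns 1 to 6 and -1.54 in columns 7 to 12. The groups overlapped for both genes. Actb, the cytoplasmic beta-actin, was lower by a smaller margin at 8847 and 11671 CPM, a log2 ratio of -0.40 and a rho of -0.36. The others were Gnb2, Tmed5, Srsf7, Timp2, Mcmbp, Fcrls and H2afy, with log2 ratios from -1.35 to -0.64. Timp2, an inhibitor of matrix metalloproteinases, was at 69.5 and 179.1 CPM with reads in 19 and 33 wells.

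Mrc1 and Arg1, the genes that would mark the opposite end, were not apart between the groups. Mrc1, the mannose receptor CD206 (chromosome 2, 14229392 to 14332057, plus strand), was at 377.2 CPM (371.1 to 383.3) in MHC II-high wells and 385.99 CPM (379.99 to 392.1) in MHC II-low wells, a log2 ratio of -0.03. It had reads in 33 and 36 wells, with medians of 208.3 and 294.8 CPM and highest values of 1075 and 1384 CPM, and its rho with H2-Ab1 was -0.10. Over the alternatives tried, the ratio of Mrc1 ran from -0.66 to 0.11. Arg1, the arginase that breaks down arginine (chromosome 10, 24915221 to 24927484, minus strand), was at 322.6 CPM (317.05 to 328.3) and 417.2 CPM (410.9 to 423.5), with reads in 10 of 41 and 16 of 40 wells and medians of 0 in both. Its log2 ratio of -0.37 was 0.21 without the well with most reads, -1.09 in plate columns 1 to 6 and 1.30 in columns 7 to 12, so its direction depended on few wells. Both Mrc1 and Arg1 had reads in 9 MHC II-high and 13 MHC II-low wells. A well with Arg1 reads and no Mrc1 reads was seen once among MHC II-high and 3 times among MHC II-low wells.

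Other genes linked to alternative activation behaved singly. Mgl2, a galactose-binding lectin of macrophages and dendritic cells (chromosome 11, 70130329 to 70137550, plus strand), was at 183.95 CPM (179.7 to 188.2) against 11.8 CPM (10.8 to 12.9), with reads in 10 and 3 wells. Its log2 ratio of 3.85 was 2.85 without a well that held 52.1% of the reads of its group. That well, F7, also had the highest H2-Ab1 level, 16562 CPM. Clec7a, the beta-glucan receptor dectin-1, had reads in 29 and 18 wells with medians of 138.3 and 0 CPM, and was at 258.9 and 67.1 CPM. Its log2 ratio was 1.93, or 2.65 in plate columns 1 to 6 and 0.65 in columns 7 to 12. Stab1, Tgm2, Msr1, Il4ra and Clec10a were within 2-fold. Of 11 measured genes of this list, 2 were at least 2-fold higher and 1 lower, against 12.8% and 20.3% of all measured genes. The other 8 lay within 2-fold, and the median was -0.03. Retnla, Lyve1 and Marco had 0 reads in every kept well, which allows a share of up to 3.70% of wells with a read when 3 of 81 wells are taken as the limit of a count of 0.

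**Figure D3:**
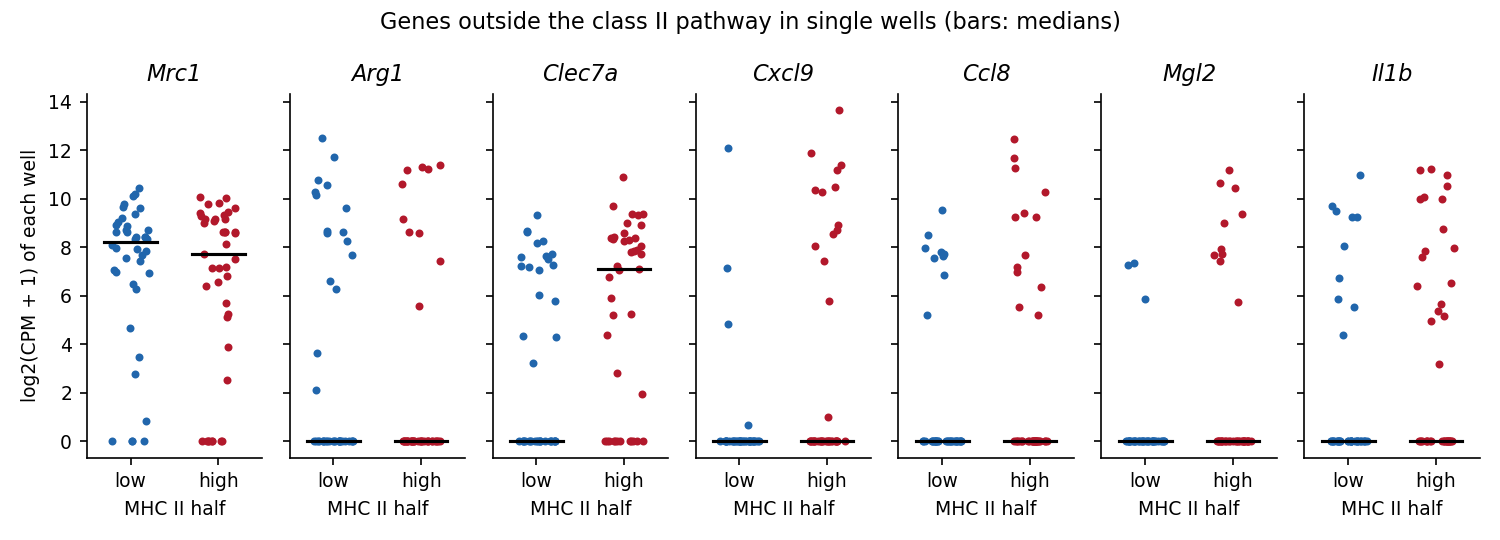
Level of 7 genes outside the class II pathway in each MHC II-low well (blue, 40) and MHC II-high well (red, 41), as log2(CPM + 1), with bars at the medians. Mrc1 covers the same range in both groups, Arg1 is at 0 in most wells of both, and Cxcl9, Ccl8, Mgl2 and Il1b have reads in more MHC II-high wells but in a minority of them.

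Interferon-gamma targets were higher in part. Cxcl9, a chemokine for CXCR3-bearing T cells (chromosome 5, 92321347 to 92328079, minus strand), was detected in 14 of 41 MHC II-high and 4 of 40 MHC II-low wells, with highest values of 12966 and 4370 CPM. Its summed level was 878.8 CPM (869.6 to 888.1) against 94.4 CPM (91.4 to 97.4), a log2 ratio of 3.21. One well, C4, held 56.5% of the reads of its group, and the ratio was 2.06 without it. Gbp2, an interferon-induced GTPase, had reads in 16 and 6 wells at 317.8 and 158.3 CPM. Irf1, a transcription factor of the response, was at 178.3 and 73.7 CPM in 16 and 15 wells, with a log2 ratio of 1.26 that was 0.56 in plate columns 1 to 6. The receptor chains Ifngr1 and Ifngr2 were within 2-fold. Igtp, another GTPase of the response, had a log2 ratio of -1.82 overall and 1.10 in plate columns 7 to 12. Of 13 measured genes, 6 were at least 2-fold higher and 1 lower, against 12.8% and 20.3% of all measured genes. The other 6 were within, and the median was 0.49. Only 1 of the 6 higher genes was still at least 2-fold higher without its leading well.

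Targets of type I interferon had 0 of 11 measured genes at least 2-fold higher and 4 lower, against 12.8% and 20.3% of all measured genes. Their median of -0.64 was 1.68 in plate columns 7 to 12. Ifit3, an RNA-binding antiviral protein, had reads in 2 MHC II-high and 7 MHC II-low wells and a log2 ratio of -2.82. Ifit2 had a ratio of -3.17 with 4 and 9 wells, and Isg15, a ubiquitin-like protein, -1.92 with 8 and 9 wells. In plate columns 7 to 12 these ratios were 1.95, 1.68 and 0.10, the opposite direction for each. Mx1, a GTPase that blocks viruses, was at 2.34 and 51.4 CPM with reads in 1 and 5 wells. The wells H1, B4 and E6, all MHC II-low, held the most reads of Ifit2, Ifit3 and Mx1.

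Among signals to T cells, Cd274, the PD-L1 checkpoint ligand, was at 78.1 CPM (75.4 to 80.9) against 20.1 CPM (18.7 to 21.5), with reads in 15 and 8 wells and a log2 ratio of 1.91. That ratio ran from 1.07 to 2.29 over the alternatives tried. Tnfsf9, the ligand of 4-1BB, was at 84.7 and 21.997 CPM in 12 and 11 wells, with 58.6% of the reads of its group in 1 well and a ratio of 1.90 that was 0.72 without it. Cd40, which receives help from T cells, had a ratio of 1.05 and of -1.92 in plate columns 7 to 12. Cd86, a costimulatory ligand, was at 186.8 and 168.5 CPM in 30 and 33 wells. Of 9 measured genes 4 were at least 2-fold higher and 0 lower, against 12.8% and 20.3% of all measured genes. The other 5 were within, and the median was 0.42. Without the leading well of each gene, 1 of the 4 was still 2-fold higher.

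MHC class I genes were near level. All 16 were measured and all 16 lay within 2-fold, with a median of 0.20 and a range from -0.83 to 0.83. Tap1, a subunit of the peptide transporter, was at 188.7 and 112.5 CPM with reads in 27 and 18 wells, and H2-D1, a class I heavy chain, was at 2796 and 2551 CPM. H2-Q6 and H2-Q7 are near-identical copies, and their values of 89.8 and 55.03 CPM and of 77.9 and 77.3 CPM are uncertain for that reason.

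**Figure D4:**
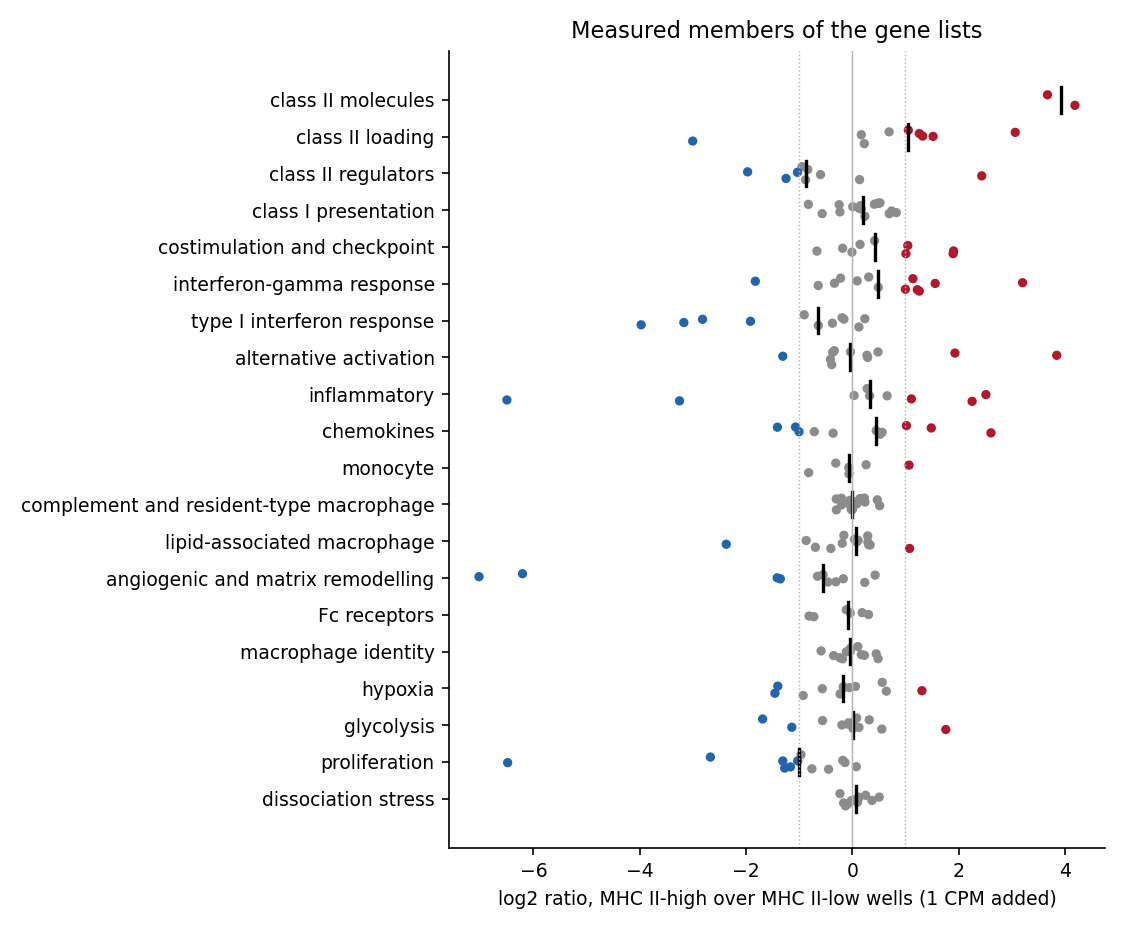
Log2 ratio of MHC II-high over MHC II-low wells for the measured members of 20 gene lists, 1 point a gene, with black bars at list medians and dotted lines at 2-fold in each direction. Of these 20 lists the class II molecules (3.93) and loading genes (1.06) have the highest medians, and complement, Fc receptor and macrophage identity genes cluster about 0.

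Cytokine and chemokine genes were uneven. Il1b, the interleukin-1 beta gene (chromosome 2, 129364570 to 129371139, minus strand), was detected in 18 of 41 and 10 of 40 wells, with highest values of 2384 and 2041 CPM. Its summed level was 451.9 CPM (445.3 to 458.6) against 93.8 CPM (90.9 to 96.8), a log2 ratio of 2.26 that was 1.21 with wells thinned to 50000 reads, 2.53 in plate columns 1 to 6 and 2.14 in columns 7 to 12. The antisense gene Il1bos overlaps it. Nlrp3, the sensor of an inflammasome, stood the other way at 3.89 and 45.6 CPM with reads in 9 and 14 wells, a ratio of -3.25. Il10, an anti-inflammatory cytokine, had 0 reads in MHC II-high wells and 89.4 CPM in MHC II-low wells, with reads in 3 of 40 wells. With 3 reads in the whole group as its floor it was at least 1171-fold lower, a bound on reads and not on wells. But 1 well held 87.8% of its reads, and the log2 ratio was -3.59 without it. Tnf, Ccl3 and Ccl4 were within 2-fold. Over 9 measured inflammatory genes, 3 were at least 2-fold higher and 2 lower, against 12.8% and 20.3% of all measured genes. The other 4 were within, and the median was 0.33.

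Ccl8, a monocyte chemokine (chromosome 11, 82115185 to 82116799, plus strand), was at 422.9 CPM (416.5 to 429.4) against 68.4 CPM (65.9 to 70.998), with reads in 13 and 9 wells. Well C4, the leading well of Cxcl9, held 51.5% of the Ccl8 reads of its group. The log2 ratio of 2.61 was 1.63 without it, 4.04 in plate columns 1 to 6 and 0.04 in columns 7 to 12. Cxcl2, a neutrophil chemokine, was at 353.1 and 125.2 CPM in 19 and 15 wells. Its log2 ratio of 1.49 was 0.32 by mean CPM of the wells and 0.29 in plate columns 7 to 12. Cxcl14 was lower, at 50.5 and 135.6 CPM with reads in 13 and 26 wells and a ratio of -1.41, and Ccl9 was at 142.1 and 298.7 CPM in 26 wells of each group. Ccl2, the main ligand of CCR2, was within 2-fold at 1112 and 813.0 CPM. Of 11 measured chemokines 3 were at least 2-fold higher and 3 lower, against 12.8% and 20.3% of all measured genes. The other 5 were within, and the median was 0.45. Without the leading well of each chemokine, 2 were still higher and 1 lower. Ccl17 and Ccl22, chemokines of dendritic cells and IL-4-treated macrophages, had 0 reads in every kept well.

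Genes of macrophage identity, complement and Fc receptors did not follow the split. All 12 identity genes, all 16 complement and resident-type genes and all 6 Fc receptor genes were within 2-fold, with medians of -0.04, -0.01 and -0.07. Csf1r was at 1368 and 1401 CPM with reads in all 81 wells, and Adgre1, the F4/80 gene, at 363.7 and 392.4 CPM in 38 and 34 wells. C1qa, C1qb and C1qc had reads in all 81 wells and log2 ratios of 0.15, 0.09 and 0.00, and Apoe, a lipid carrier, was at 47758 and 40782 CPM. Itgam, the CD11b gene, was at 297.7 and 447.1 CPM. Ptprc had reads in 34 of 41 MHC II-high and 40 of 40 MHC II-low wells.

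Monocyte genes were mostly level as well. Ccr2, the receptor that brings monocytes into tissue, had reads in 17 of 41 and 5 of 40 wells at 126.5 and 59.8 CPM, a log2 ratio of 1.07 that was 0.74 without the leading well and -0.89 in plate columns 7 to 12. F13a1, a clotting factor subunit of monocytes and resident macrophages, was at 210.2 and 371.8 CPM in 18 and 24 wells. Of 6 measured genes 1 was at least 2-fold higher, against 12.8% of all measured genes. The other 5 were within, and the median was -0.06. Of 14 measured lipid-associated macrophage genes, 1 was at least 2-fold higher and 1 lower, against 12.8% and 20.3% of all measured genes. The other 12 were within 2-fold, among them Trem2 and Spp1, and the list median was 0.06. Fabp5, a fatty acid carrier, was the higher gene (156.5 and 73.5 CPM). Its log2 ratio of 1.08 was 0.95 without the leading well and 0.46 in plate columns 7 to 12. Gpnmb, a lysosomal glycoprotein, was the lower gene (14.1 and 77.2 CPM, 2 and 9 wells).

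The genes of poorly perfused tissue did not stand apart. Hypoxia genes had 1 of 12 measured members at least 2-fold higher, 2 lower and 9 within, with a median of -0.16. Glycolysis genes had 1 of 14 higher, 2 lower and 11 within, with a median of 0.01. Among all measured genes, 12.8% were higher and 20.3% lower. Without the leading well of each gene, 0 of the 3 hypoxia genes and 2 of the 3 glycolysis genes were still 2-fold apart. Ldha, which makes lactate, was at 846.5 and 968.9 CPM, and Slc2a1, a glucose transporter, at 72.4 and 107.4 CPM. Pdk1, which holds pyruvate back from mitochondria, was at 17.7 and 50.3 CPM, a log2 ratio of -1.45 that was 0.10 with wells split on Cd74. Vegfa, the main angiogenic factor, had reads in 3 wells of each group. Pfkl, a phosphofructokinase, was higher at 140.8 and 40.9 CPM in 17 and 10 wells.

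Matrix remodelling genes had 0 of 11 measured members higher and 4 lower, against 12.8% and 20.3% of all measured genes. Their median was -0.55. Of the 4, 2 were metalloproteinases with reads in few wells. Mmp13, a collagenase, had 0 reads in MHC II-high wells and 129.05 CPM in MHC II-low wells, with reads in 3 of 40 wells. It was at least 1690-fold lower if 3 reads over the group are its floor, a bound on reads and not on wells. Well H1 held 65.8% of its reads, and the log2 ratio was -5.56 without it. Mmp12, an elastase of macrophages, had 0 reads and 72.7 CPM, with reads in 4 wells and a like bound of 953-fold. Well H1 held 90.95% of its reads, and the log2 ratio was -2.98 without it. The 95% intervals of the share of wells overlapped, at 0 to 8.60% against 1.57% to 20.4% for Mmp13 and 2.79% to 23.7% for Mmp12. The list median was -0.55 also with Mmp13 and Mmp12 at their bound.

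Of 12 measured cell cycle genes, 6 were at least 2-fold lower in MHC II-high wells, 0 higher and 6 within. Of all measured genes, 20.3% were lower. The list median was -0.99, or -0.42 with wells split on Cd74 and -0.60 with wells split on H2-Aa. Without the leading well of each gene, 3 of the 6 were still 2-fold lower, as were 1070 of all 2212 lower genes. Mki67, a marker of dividing cells, had reads in 6 of 41 and 12 of 40 wells at 71.7 and 174.5 CPM. Its log2 ratio of -1.27 was -0.92 without the leading well. Stmn1, a microtubule regulator, was at 124.3 and 308.8 CPM in 12 and 19 wells. Ube2c, which works at mitotic exit, was at 0.05 and 93.1 CPM in 2 and 7 wells, with 47.4% of its reads in well E3. Its log2 ratio of -6.48 was -0.39 with wells split on Cd74 and -0.27 with wells split on H2-Aa. Ccnb1, the mitotic cyclin, had a ratio of -2.67, with 61.4% of the reads of its group in well E3. With wells split on Cd74 and on H2-Aa the Ccnb1 ratio was 0.71 and 0.36. Over 81 wells, Mki67 went with the number of genes with a read at a rho of 0.43, and the part of this in the larger gene number of MHC II-low wells was not tested. Dissociation stress genes, such as Fos and Hspa1a, were within 2-fold in 12 of 12 cases with a median of 0.07.

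The genes with the largest ratios were ranked among those at 20 CPM or more and in 25% of wells or more of the higher group, if they were 2-fold apart by summed reads, by the mean CPM of wells and also without the leading well. The 10 highest were Rubcnl, H2-Ab1, Heatr1, H2-Eb1, H2-Aa, Sestd1, Eva1b, Zfp451, Cxcl9 and Cd74. Rubcnl, a regulator of autophagy (chromosome 14, 75016027 to 75052532, plus strand), was at 67.97 CPM (65.4 to 70.6) against 0.807 CPM (0.556 to 1.13), with reads in 13 and 3 wells. Heatr1, a ribosome biogenesis factor, was at 36.7 and 1.03 CPM in 11 and 2 wells and overlaps Lgals8 on the other strand. The 5 genes of the 10 that are outside the class II pathway and are not Cxcl9 had reads in 11 to 17 of 41 MHC II-high wells.

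The 10 lowest were Fam3a, Mta1, Ppwd1, Wdr70, Ints10, Snx27, Capn7, Tbcd, Pcnt and Cpsf7, with log2 ratios from -4.48 to -3.41. They had reads in 10 to 15 of 40 MHC II-low wells. Mta1, a subunit of a chromatin remodelling complex, was at 0.509 and 28.02 CPM with reads in 3 and 15 wells. Pcnt, a scaffold of the centrosome, was at 1.43 and 26.1 CPM with reads in 1 and 13 wells. Wdr70 had a ratio of -4.05, but 0.04 with wells split on Cd74 and 0.16 with wells split on H2-Aa.

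Markers of other cell types are given because dendritic cells and B cells also express class II. Of the 81 wells, 49 had 100 CPM or more of such markers in sum, not counting neutrophil and mast cell markers. In 7 wells, 3 or more markers of 1 cell type had reads. B and plasma cell markers had reads in 27 MHC II-high and 24 MHC II-low wells, and neutrophil and mast cell markers in 21 and 18. Flt3, Clec9a, Cd209a and Ccr7, markers of dendritic cells, had 0 reads in all 81 wells, and so did Cd79a and Pax5 of B cells. Xcr1, Batf3 and Kmo, also dendritic cell markers, had reads in 2, 9 and 1 MHC II-high and 2, 7 and 3 MHC II-low wells. At least 1 dendritic cell marker had reads in 13 and 12 wells, and Cd79b of B cells had reads in 9 and 11. The summed level of 12 dendritic cell markers ran from 0 to 533.8 CPM in MHC II-high and from 0 to 298.1 CPM in MHC II-low wells, with medians of 0, and 1 MHC II-high well had reads of 3 of them. B and plasma cell markers summed to a median of 94.3 CPM (0 to 1322) and 55.4 CPM (0 to 1806). Among them Ighm had reads in 20 and 19 wells. T and NK cell markers had reads in 9 wells of each group, with sums of up to 1351 and 2300 CPM, and 1 MHC II-high and 3 MHC II-low wells had at least 3 of them. Of the dendritic cell markers 3 were measured, with 0 higher, 1 lower and 2 within 2-fold. Of the T and NK cell markers 8 were measured, with 1 higher, 2 lower and 5 within. Among all measured genes, 12.8% were higher and 20.3% lower. The B cell, neutrophil and epithelial marker lists had 2, 1 and 1 measured genes, each within 2-fold, and the 1 measured fibroblast gene, Col3a1, was lower. Pecam1, the CD31 gene, was the 1 measured endothelial marker. It was at 11.9 CPM in MHC II-high and 0.196 CPM in MHC II-low wells, with reads in 4 and 7 wells. Reads of any of the 7 endothelial markers were in 4 MHC II-high and 12 MHC II-low wells. In 0 MHC II-high and 2 MHC II-low wells at least 3 of them had reads. Without the 7 wells with at least 3 markers of another cell type, the log2 ratios of H2-Eb1, H2-Aa and Cd74 were 3.90, 3.39 and 2.85. With a wider exclusion, of 49 wells with 100 CPM or more of such markers, they were 4.88, 4.07 and 3.28. The part of these markers in the other results was not tested.

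The endothelial wells of the series give the level of class II genes in another cell type. H2-Ab1 was at 323.7 CPM in GFP+ and 282.7 CPM in GFP- endothelial cells of lymph node, and at 109.7 CPM in GFP+ and 50.7 CPM in GFP- endothelial cells of tumour, beside 272.1 CPM in MHC II-low macrophages, a level that the selection set. H2-Ab1 had reads in 50 of 98 GFP+ lymph node endothelial wells and in 27.2% of GFP+ tumour endothelial wells, against 28 of 40 MHC II-low macrophage wells. H2-Aa, at 338.9 CPM in MHC II-low macrophages, was at 99.997 CPM in GFP+ and 234.9 CPM in GFP- lymph node and 20.6 CPM in GFP+ tumour endothelial cells. H2-Eb1, at 213.05 CPM in MHC II-low macrophages, was at 125.1, 106.7 and 23.9 CPM in the same 3 groups. H2-DMa was at 284.1 CPM in MHC II-low macrophages and at 20.1, 44.3 and 6.91 CPM in those groups, and H2-DMb1 at 207.7 CPM and at 50.1, 26.4 and 30.2 CPM. Cd74, at 1401.16 CPM in MHC II-low macrophages, was higher in GFP+ lymph node endothelial cells, at 2195.99 CPM. It had reads in 94 of 98 of those endothelial wells, against 36 of 40 MHC II-low macrophage wells. Cd74 was lower in GFP- lymph node (860.16 CPM) and GFP+ tumour (134.962 CPM) endothelial cells. In GFP+ tumour endothelial cells Mrc1 was at 0.650 CPM and Arg1 at 0.597 CPM, while Mgl2, Ccl8 and Il1b had 0 reads and Cxcl9 was at 165.8 CPM with reads in 15.4% of wells. Cell type, plate and sort differ together in these comparisons and cannot be told apart.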

How the data were processed

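The deposited values are read counts per gene and well, in 2 tables of the series, made by the authors from SMART-seq2 libraries amplified by PCR without molecular identifiers. Per the submitters' processing notes reads were processed with Subread 1.4.6-p2 and STAR 2.4.1b, beside FastQC 0.11.4, on build mm10. The annotation and the strand setting are not given in the sources used here. All 768 columns of wells had a sample in the labels, and 0 were left out for want of one.

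The 51826 rows of the table with the macrophages held 92 rows with a repeated symbol, which were summed to 51734 symbols. Levels are summed read counts of a group scaled to 1000000 reads in genes (CPM), with exact Poisson 95% intervals, and shares of wells have exact Clopper-Pearson intervals. Ratios are log2 after adding 1 CPM, called at 2-fold. A gene was measured when one group had it at 1 CPM or more and in 5% of wells or more. The floor for a gene with 0 reads was 3 reads over the group. No 2 kept macrophage wells held identical counts (0 pairs). With 1 sample a group, no test was run and no p-value was given.

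The groups were chosen by H2-Ab1, and the members, the 27 gene lists and their 310 genes were chosen with earlier results of these data known. Named genes were the 10 highest and 10 lowest ratios among genes at 20 CPM or more and in 25% of wells or more of the higher group, 2-fold apart also by mean CPM of the wells and without the leading well. Added to these were 12 fixed class II and identity genes, up to 4 members a list by size of ratio, and the 10 highest and 10 lowest Spearman's rho with H2-Ab1 among genes read in 50% of wells or more. Predicted, ribosomal and mitochondrial genes were left out of these rankings and were not named. Other list members were named as examples after their values were seen. Positions are from GENCODE on GRCm38, and promoters from RefSeq on GRCm38.p6. The calculations used Python 3.11.15, numpy 2.4.6, pandas 2.3.3, scipy 1.17.1 and, for TMM factors as an alternative, edgeR 4.0.16 in R 4.3.3, and were tested on simulated data.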

Additional observations from a re-analysis of the deposited data

Results flagged for a closer look

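One of the 15 macrophage wells that were not kept, well E8, had 4 H2-Ab1 reads. It was not part of the comparison because its 23906 reads in genes were under the minimum. It had 1 Cd74 read and 100 C1qb reads among 2761 genes with a read. Another well that was not kept, H11, had 0 H2-Ab1 reads but 815 H2-Aa and 653 Cd74 reads among 44431 reads, with fewer than 1000 genes detected.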

How the results depend on the processing

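The comparison was repeated under 16 alternatives and without the well with most reads of each gene. Of the 16, 5 (plate columns 1 to 6 and 7 to 12, leaving out wells with Mki67 reads, and leaving out wells by markers of other cell types in 2 ways) were chosen after seeing the data. The rule of at least 3 markers was added after the values of the rule of 100 CPM of markers were seen, and both are given. Neutrophil and mast cell markers count in the rule of 3 markers but not in the sum of 100 CPM. The log2 ratio ran from 3.65 to 5.78 for H2-Eb1, from 3.15 to 4.95 for H2-Aa and from 2.29 to 4.46 for Cd74, and the median of the class II list from 0.78 to 3.22. Of 76 named genes at least 2-fold apart, 26 stayed so in the same direction in every alternative run for single genes. H2-Ab1, which set the groups, is among the 26. Genes of the 10 highest and 10 lowest ratios were named only if 2-fold apart by mean CPM and without the leading well. Both settings are counted here, so the number is partly set by the selection. The counts of genes moved more and are given with their percent of measured genes. Genes at least 2-fold higher (1401, 12.8%) numbered 2227 (12.97%) with no filter on low genes, 2352 (21.02%) in plate columns 1 to 6 and 2451 (23.16%) in columns 7 to 12, and were 6.29% of 5281 genes with a filter of 10 CPM and reads in 25% of wells. They numbered 3190 (28.54%) without 49 wells with 100 CPM or more of other markers, which left 15 MHC II-high and 17 MHC II-low wells. There the higher genes were 50.2% of all genes apart, against 38.8% with all wells. Genes at least 2-fold lower (2212, 20.3%) numbered 1440 (13.19%) with 5 CPM added and 538 (10.19%) with the filter of 10 CPM.

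Several values turned direction, also ones far from 0 with all wells, such as Wdr70 (-4.05) and Cd4 (3.45). The type I interferon list, at -0.64 with all wells, was 1.68 in columns 7 to 12. The endothelial list (3.43) was Pecam1 alone with the filter on low genes. With no filter more of its members counted and its median was -0.069, which is a change of members. H2-Ob was 0.032 with thinned wells, 2.22 in columns 7 to 12 and 0.049 without its leading well, and Cd8a was 0.68 without its leading well and 0.56 without wells with Mki67 reads. With wells split on Cd74, Wdr70 was 0.038, Pdk1 0.10 and Ccnb1 0.71, and with wells split on H2-Aa, Wdr70 was 0.16 and Ccnb1 0.36. Without the wells with 100 CPM of markers, Hk1 was 1.59, Cd4 -2.30, Col3a1 0.30 and Ccnb1 4.74. The fibroblast list, which was Col3a1 alone with all wells, was 1.63 there over the members measured in that setting. In columns 7 to 12, Nfyb was 0.031, Cd40 -1.92, Igtp 1.10, Ifit2 1.68, Ifit3 1.95, Isg15 0.10, Ccr2 -0.89, Xcr1 0.14 and Col3a1 0.27. The cause of these changes was not tested. No paired analysis was possible because the wells carry no replicate number or animal, and each group is 1 sample. Low levels are limited by depth: wells had 111208 to 2909179 reads, and a gene read in few wells may be missed in others.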
